A study of Mus musculus with 9 samples.

Results

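The genes described here encode the enzymes that build, lengthen and desaturate fatty acids: Acly and Acss2, which supply cytosolic acetyl-CoA, the acetyl-CoA carboxylases Acaca and Acacb, the fatty acid synthase Fasn, the elongase Elovl6, and the desaturases Scd1, Scd2, Fads1 and Fads2. They were found by their deposited gene names, and all 10 were among the 10762 genes measured. RNA was sequenced from B16.SIY, melanoma cells of mouse strain C57BL/6 kept as a line, which carry the model antigen SIY (SIYRYYGL) fused to the red fluorescent protein dsRED. There were 3 groups, each of 3 libraries with the replicate numbers 0, 1 and 2: cells infected with lentivirus for Decr2 shRNA1, cells infected for Decr2 shRNA2, and cells infected for a control shRNA. All groups were selected with puromycin as stable lines and grown in DMEM with fetal calf serum. Tumors are named in the title of the series, but every sample label is of a line in culture. Whether the 3 libraries of a group came from separate cultures is not stated, so the p-values rest on a spread among libraries that could be purely technical.

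Fatty acid synthesis starts from citrate or acetate in the cytosol. ATP citrate lyase (Acly) and acetyl-CoA synthetase (Acss2) make acetyl-CoA from them, the carboxylases turn it into malonyl-CoA, and the synthase joins these units into palmitate. In the endoplasmic reticulum, Elovl6 lengthens palmitate to stearate, and the stearoyl-CoA desaturases Scd1 and Scd2 set the first double bond, which gives palmitoleate and oleate. Fads1 and Fads2 act instead on polyunsaturated fatty acids from the diet or serum. Many of these genes are known targets of the transcription factor SREBP-1. Decr2, the gene targeted by the hairpins, encodes a peroxisomal 2,4-dienoyl-CoA reductase that serves the breakdown of polyunsaturated fatty acids.

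The values are deposited log2 levels whose scaling is not stated, and the number of reads is unknown. Their antilogs summed to between 969465 and 1045849 per library, and libraries of a group correlated at 0.966 to 0.994 across genes, against 0.955 to 0.988 between groups. Replicate 0 of shRNA1 stood apart from its group, at r = 0.966 and 0.970 to the other shRNA1 libraries and 0.984 to replicate 0 of shRNA2. To a lesser degree replicate 0 also stood apart in control (0.9835 and 0.9857, against 0.9936 between replicates 1 and 2). The same held with shRNA2 (0.9792 and 0.9783, against 0.9918). For the members, results are given without replicate 0 of shRNA1 where that changed a call. Decr2 was the check on the labels. Its log2 level was 2.87, 2.51 and 3.18 with shRNA1, 0.84, 1.18 and 1.55 with shRNA2, and 3.96, 4.10 and 3.71 with the control hairpin, which left 47.6% of the control level with shRNA1 (limma, adjusted p = 0.0195) and 15.0% with shRNA2 (adjusted p = 0.000568). The shRNA1 call on Decr2 missed the threshold when replicate 1 (adjusted p = 0.0872) or 2 (0.0537) of control or replicate 1 of shRNA1 (0.0579) was omitted. All 7 markers of melanocytes were listed and none was called, with a summed linear level of 13100 to 18400 with shRNA1, 13000 to 22400 with shRNA2 and 17000 to 19300 with control. Of 31 markers of 6 other cell types, 5 were listed and none was called: Plvap, Postn, Pdgfrb, Col1a1 and Lck. No marker of adipocytes, the cell type best known for fatty acid synthesis, was listed.

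The members did not move as a block. Acss2, Acacb and Scd1 rose with each hairpin, Fasn fell with each, Elovl6 fell with shRNA2, and Acly, Acaca, Scd2, Fads1 and Fads2 did not pass the test. A gene was called at a Benjamini-Hochberg adjusted p under 0.05 in limma over all genes. With shRNA1, 4 of the 10 members were called, 3 higher and 1 lower, where 12.4% of all genes were called (6.92% higher and 5.49% lower). With shRNA2, 5 of 10 were called, 3 higher and 2 lower, where 12.9% of all genes were called (7.27% higher and 5.67% lower). Called with each hairpin in the same direction were 4 members, 3 higher and 1 lower, against 7.55% of all genes (4.54% higher and 3.01% lower). With shRNA1, 5 members did not overlap the control libraries, 3 above and 2 below, where 33.9% of all genes did not, and with shRNA2 it was 7 members, 3 above and 4 below, where 38.8% of all genes did not. Both comparisons use the same control libraries. The median member had a log2 fold change of -0.02 with shRNA1 and 0.00 with shRNA2, where the median over all genes was 0.002 and 0.005. Libraries of bulk RNA do not separate fewer cells of a kind from less RNA per cell. The authors' deposited table called the same 4 members with shRNA1 and the same 5 with shRNA2.

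**Figure D1:**
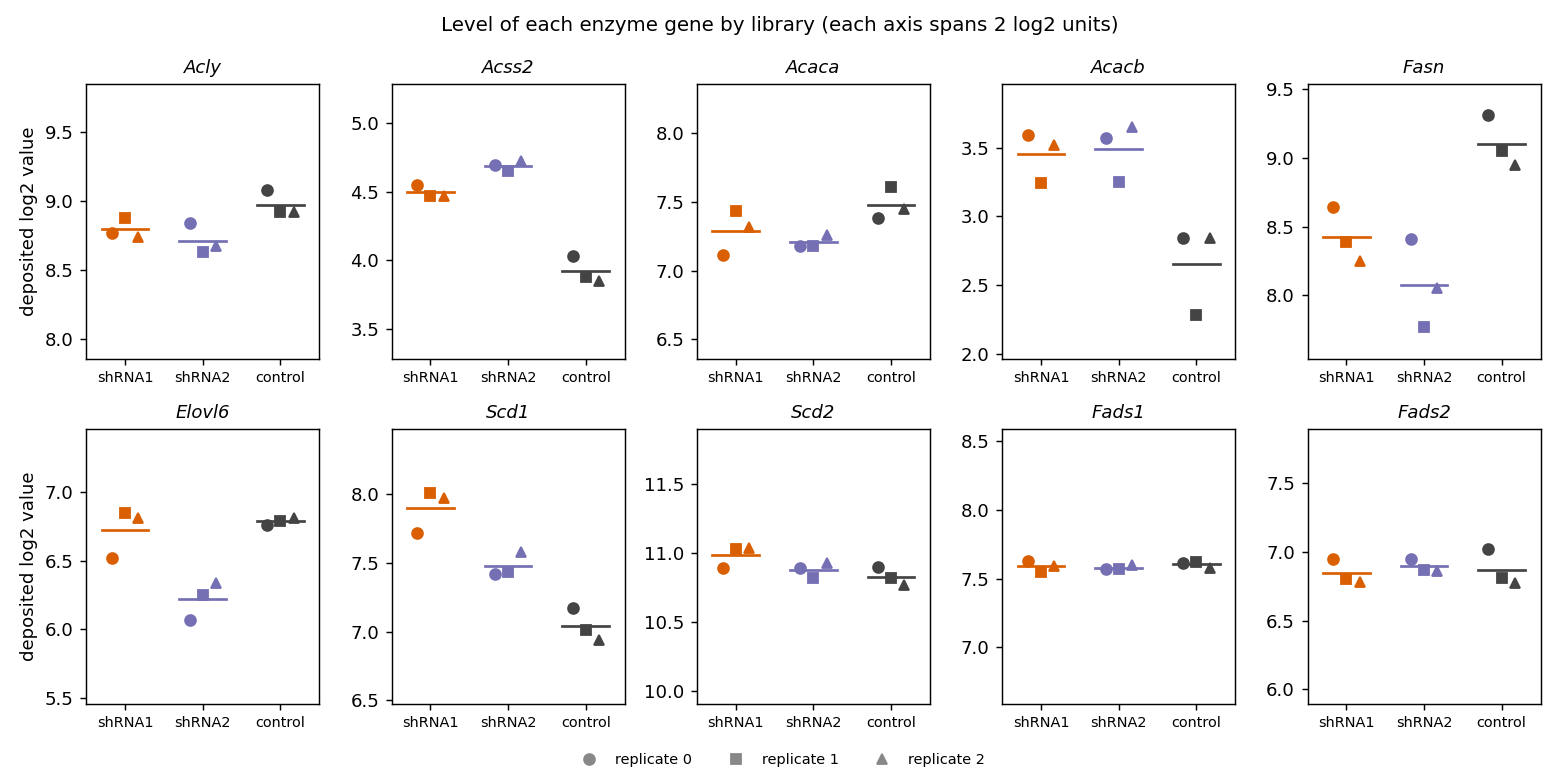
Deposited log2 level (vertical axis) of each of the 10 genes in every library, with shRNA1, shRNA2 and control from left to right; points are libraries and bars are group means. All hairpin libraries lie above the controls for Acss2, Acacb and Scd1 and below them for Acly and Fasn.

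Of the genes that supply acetyl-CoA, Acss2 rose with each hairpin and Acly did not pass with either. Acss2 (chromosome 2, 155517948 to 155585724, plus strand, protein coding; GRCm38) had log2 levels of 4.55, 4.47 and 4.47 with shRNA1, 4.69, 4.65 and 4.72 with shRNA2 and 4.03, 3.88 and 3.85 with control. Every hairpin library was above every control library, and the 3 shRNA2 libraries were above the 3 shRNA1 libraries. It rose by 0.58 with shRNA1 (SE 0.08, adjusted p = 0.00497), to 149% of control (95% interval 131% to 170%), and by 0.77 with shRNA2 (SE 0.08, adjusted p = 0.00202), to 170% (149% to 194%). Between the lines the log2 difference of shRNA2 over shRNA1 was 0.19 (SE 0.08, unadjusted p = 0.0497) and was not called (adjusted p = 0.495). Its call held with each hairpin under every alternative setting and without any single library.

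Acly (chromosome 11, 100476353 to 100528000, minus strand) had log2 levels of 8.77, 8.88 and 8.74 with shRNA1, 8.84, 8.63 and 8.67 with shRNA2 and 9.08, 8.92 and 8.92 with control. All 6 hairpin libraries were below the 3 control libraries, by small amounts. Its log2 fold change was -0.18 with shRNA1 (SE 0.08, adjusted p = 0.199) and -0.26 with shRNA2 (SE 0.08, adjusted p = 0.0745), and neither passed. With the replicate number as a block, the shRNA2 value passed (adjusted p = 0.0343) and so did the mean of both hairpins (-0.22, adjusted p = 0.0312, against 0.0678 without the block). With no libraries numbered 0 both passed as well (adjusted p = 0.00657 and 0.0137). Leaving out shRNA1 replicate 0 (adjusted p = 0.0481) or shRNA2 replicate 0 (0.0483) also brought the shRNA2 value past the threshold.

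Of the 2 carboxylases, Acacb rose with each hairpin and Acaca did not pass with either. Acaca (chromosome 11, 84129672 to 84401651, plus strand) encodes the cytosolic carboxylase whose malonyl-CoA is used by the synthase. Its log2 levels were 7.11, 7.43 and 7.32 with shRNA1, 7.18, 7.18 and 7.26 with shRNA2 and 7.38, 7.61 and 7.45 with control, so that all shRNA2 libraries, but not all shRNA1 libraries, lay below the controls. Log2 fold changes were -0.19 (SE 0.10, adjusted p = 0.232) with shRNA1 and -0.27 (SE 0.10, adjusted p = 0.101) with shRNA2. With the replicate block the shRNA2 value passed (adjusted p = 0.0347), as did the mean of both hairpins (-0.23, adjusted p = 0.0302, against 0.0896 without it), and the shRNA2 value also passed without shRNA1 replicate 0 (0.0308) and, narrowly, with only the groups compared (0.0499). With no libraries numbered 0, Acaca passed for shRNA2 (adjusted p = 0.0104) and in the mean (0.0174). Of the 31-base words of its GENCODE transcripts, 33.4% also occurred in transcripts of other genes, chiefly Gm5182, which is not in the table, so that reads could have been divided between them.

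Acacb (chromosome 5, 114146535 to 114250761, plus strand) encodes the carboxylase at the mitochondrial outer membrane, whose malonyl-CoA is known to limit fatty acid entry into mitochondria. It had log2 levels of 3.59, 3.24 and 3.52 with shRNA1, 3.57, 3.25 and 3.65 with shRNA2 and 2.84, 2.28 and 2.84 with control. In each group replicate 1 was the lowest, and all hairpin libraries were above all control libraries. The gene rose by 0.80 with shRNA1 (SE 0.19, adjusted p = 0.0269), to 174% of control (95% interval 130% to 232%), and by 0.84 with shRNA2 (SE 0.19, adjusted p = 0.0224), to 179% (133% to 239%). The difference between the lines was 0.04 (95% interval -0.38 to 0.46). The shRNA1 call missed the threshold with only the groups compared (adjusted p = 0.0571) and when shRNA1 replicate 2 (0.0774), control replicate 2 (0.0599) or control replicate 1 (0.0892) was omitted. That with shRNA2 was lost without control replicate 1 (0.0707), control replicate 2 (0.0518), shRNA2 replicate 0 (0.056) or shRNA2 replicate 2 (0.0862), and the call on the mean of both hairpins (0.82, SE 0.16, adjusted p = 0.0107) held in each setting that kept the gene.

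Fasn, the synthase itself, fell with both hairpins. Its log2 levels (chromosome 11, 120805846 to 120824547, minus strand) were 8.64, 8.39 and 8.25 with shRNA1, 8.41, 7.77 and 8.05 with shRNA2 and 9.31, 9.05 and 8.95 with control. The highest hairpin library was below the lowest control library, and replicate 0 was the highest of each group. Against the control of the same replicate number, the log2 differences were -0.67, -0.65 and -0.70 with shRNA1 and -0.89, -1.28 and -0.89 with shRNA2. Fasn fell by 0.67 with shRNA1 (SE 0.17, adjusted p = 0.034), to 62.7% of control (95% interval 48.1% to 81.7%), and fell by 1.02 with shRNA2 (SE 0.17, adjusted p = 0.00772), to 49.3% (37.8% to 64.3%). The shRNA2 call held under every alternative. The shRNA1 call was not made when any single control library was omitted (adjusted p = 0.09, 0.102 and 0.0754 for replicates 0, 1 and 2), nor when replicate 1 (0.0817) or 2 (0.101) of shRNA1 or replicate 2 of shRNA2 (0.0557) was. Between the lines the log2 difference of shRNA2 over shRNA1 was -0.35 (95% interval -0.73 to 0.04, adjusted p = 0.558); without the libraries numbered 0 it was called (adjusted p = 0.0315).

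Promoter sequences are shown for Fasn, which fell with each hairpin, Acss2, which rose with each, and Elovl6, which fell with shRNA2. Each is 300 bases of RefSeq's GRCm38.p6 sequence, from 250 bases before to 50 after the annotated start, read 5′ to 3′ on the gene's strand. RefSeq windows were matched by symbol for 7 of the 10 members. Capitals mark matches to the motifs searched, on either strand.
Fasn, chr11:120824498-120824797, minus strand: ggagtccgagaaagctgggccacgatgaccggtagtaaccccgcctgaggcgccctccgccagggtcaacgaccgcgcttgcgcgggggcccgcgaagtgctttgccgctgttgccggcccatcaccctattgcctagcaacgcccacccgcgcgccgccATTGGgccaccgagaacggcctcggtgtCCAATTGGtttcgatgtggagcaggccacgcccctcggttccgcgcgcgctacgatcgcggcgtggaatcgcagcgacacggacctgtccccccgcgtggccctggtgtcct
Acss2, chr2:155517793-155518092, plus strand: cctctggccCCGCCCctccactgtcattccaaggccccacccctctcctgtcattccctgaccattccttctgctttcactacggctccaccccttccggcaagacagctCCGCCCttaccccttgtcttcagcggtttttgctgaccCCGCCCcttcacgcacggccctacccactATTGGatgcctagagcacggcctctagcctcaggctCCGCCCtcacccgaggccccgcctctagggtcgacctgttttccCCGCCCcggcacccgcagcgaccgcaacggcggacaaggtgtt
Elovl6, chr3:129532136-129532435, plus strand: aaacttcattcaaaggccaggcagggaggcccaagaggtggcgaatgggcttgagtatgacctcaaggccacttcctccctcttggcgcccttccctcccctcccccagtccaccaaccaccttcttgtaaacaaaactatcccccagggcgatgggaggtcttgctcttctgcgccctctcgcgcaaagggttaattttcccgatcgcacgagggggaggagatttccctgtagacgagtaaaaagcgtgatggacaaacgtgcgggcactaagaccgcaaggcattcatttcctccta
The motifs searched were TCACNCCAC (a sterol regulatory element), CACGTG (an E-box), CCAAT (the box bound by NF-Y), GGGCGG (a GC box) and TGATGNAA (the element of C/EBP and ATF factors). The Fasn window held 3 CCAAT boxes, with first bases at -90, -62 and -59 from the start, and the last 2 of them overlap. The Acss2 window held 1 CCAAT box at -73 and 5 GC boxes at -241, -140, -102, -37 and 8, while the Elovl6 window held no match. CCAAT was present in 37.4% and GGGCGG in 35.7% of 32851 RefSeq promoter windows of the same length. TCACNCCAC was present in 1.24%, CACGTG in 7.15% and TGATGNAA in 3.97% of them, and in none of the 7 member windows. The windows of Acaca (chr11:84195188-84195487) and Acacb (chr5:114165268-114165567) lie inside the genes, away from the GENCODE starts at 84129672 and 114146535. The sequence at those GENCODE starts was not searched. A match is a description of these letters, and a missing match says only that they are not in this window.

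Elovl6 was called with shRNA2 and not with shRNA1. The gene (chromosome 3, 129532355 to 129638495, plus strand) had log2 levels of 6.52, 6.85 and 6.81 with shRNA1, 6.07, 6.25 and 6.34 with shRNA2 and 6.76, 6.79 and 6.81 with control. All shRNA2 libraries were below every other library, while shRNA1 libraries lay on either side of the controls. It fell by 0.57 with shRNA2 (SE 0.10, adjusted p = 0.0109), to 67.4% of control (95% interval 57.3% to 79.2%), a call lost only without control replicate 2 (0.0511). With shRNA1 the log2 fold change was -0.06 (95% interval -0.29 to 0.17, adjusted p = 0.747). The test of the difference itself, shRNA2 over shRNA1, gave -0.51 (SE 0.10, 95% interval -0.74 to -0.28, unadjusted p = 0.000744) and missed the threshold over all genes (adjusted p = 0.0909). It passed with the replicate block (adjusted p = 0.0198), without the libraries numbered 0 (0.00182) and without shRNA1 replicate 0 (0.0212). Of its 31-base words, 6.41% occur in other genes, for the most part in Gm11295.

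**Figure D2:**
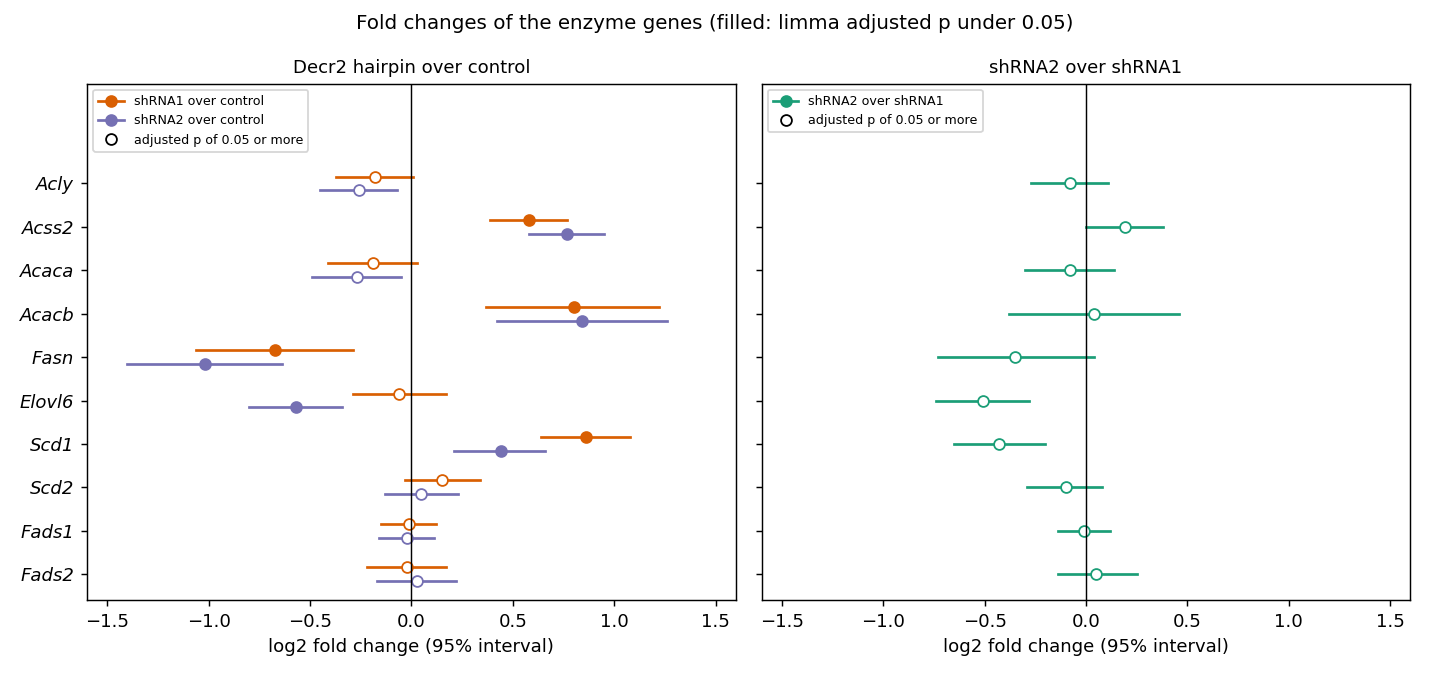
Log2 fold change against control (horizontal axis) of each member with shRNA1 and with shRNA2, with 95% confidence intervals, and beside it the log2 difference of shRNA2 over shRNA1; filled points passed the limma test. Acss2, Acacb and Scd1 lie to the right of 0 with both hairpins, Fasn lies to the left with both, and Elovl6 lies to the left with shRNA2.

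Among the desaturases Scd1 rose and the others did not pass. Scd1 (chromosome 19, 44394455 to 44407879, minus strand) had log2 levels of 7.72, 8.01 and 7.97 with shRNA1, 7.42, 7.43 and 7.58 with shRNA2 and 7.17, 7.01 and 6.94 with control. The 3 groups did not overlap: shRNA1 was highest, shRNA2 intermediate and control lowest. Scd1 rose by 0.86 with shRNA1 (SE 0.10, adjusted p = 0.00207), to 182% of control (95% interval 156% to 212%), and by 0.44 with shRNA2 (SE 0.10, adjusted p = 0.0237), to 135% (116% to 158%). The line with more Decr2 mRNA, shRNA1, thus had the higher Scd1 level, but the log2 difference of shRNA2 over shRNA1, -0.43 (SE 0.10, unadjusted p = 0.0019), was not called (adjusted p = 0.144). It was called without the libraries numbered 0 (0.00399) and without shRNA1 replicate 0 (0.0356). Against control, Scd1 missed the threshold for shRNA2 when replicate 1 or 2 of the control group (adjusted p = 0.0926 and 0.101) or of the shRNA2 group (0.0663 and 0.0917) was omitted. Of the 31-base words of Scd1, 8.14% occur in other genes, mostly in its paralog Scd3, which is not in the table.

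Scd2, the neighbouring paralog (chromosome 19, 44293674 to 44306864, plus strand), had log2 levels of 10.89, 11.03 and 11.04 with shRNA1, 10.89, 10.82 and 10.93 with shRNA2 and 10.90, 10.82 and 10.77 with control. The groups overlapped. Log2 fold changes were 0.15 with shRNA1 (95% interval -0.03 to 0.34, adjusted p = 0.254) and 0.05 with shRNA2 (95% interval -0.13 to 0.23, adjusted p = 0.743), and without the libraries numbered 0 the shRNA1 value was 0.24 and passed (adjusted p = 0.00818).

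Fads1, the delta-5 desaturase (chromosome 19, 10182888 to 10196877, plus strand), had the steadiest level of the members: 7.63, 7.55 and 7.59 with shRNA1, 7.57, 7.57 and 7.60 with shRNA2 and 7.61, 7.62 and 7.58 with control. Its SD within groups was 0.028 on the log2 scale, against 0.155 for the median gene. The log2 fold change was -0.01 with shRNA1 (95% interval -0.15 to 0.12) and -0.02 with shRNA2 (-0.16 to 0.11). Fads2, the delta-6 desaturase encoded on the minus strand of the same region (10062765 to 10101746), had levels of 6.95, 6.80 and 6.78 with shRNA1, 6.95, 6.87 and 6.86 with shRNA2 and 7.02, 6.81 and 6.77 with control. Replicate 0 was the highest Fads2 library of each group, and the groups overlapped. Its log2 fold changes were -0.02 (95% interval -0.22 to 0.17) and 0.03 (-0.17 to 0.22), and neither gene passed under any alternative.

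In the mean of both hairpins against control, 5 of 10 members were called (Acss2, Acacb and Scd1 higher, Fasn and Elovl6 lower), where 17.6% of all genes were. For 5 members all 6 hairpin libraries lay outside the control range, 3 above and 2 below, where 22.9% of all genes did. Acss2 rose by 0.67 (SE 0.07, adjusted p = 0.00122), Scd1 by 0.65 (SE 0.09, adjusted p = 0.00237) and Acacb by 0.82, while Fasn fell by 0.85 (SE 0.15, adjusted p = 0.00652). Elovl6 fell by 0.31 (SE 0.09, adjusted p = 0.0407) although its shRNA1 value did not pass, and the groups overlapped. That call was lost in 7 of 16 alternatives, among them each control library left out in turn (adjusted p = 0.084, 0.136 and 0.149), shRNA1 replicate 2 (0.0543), shRNA2 replicate 0 (0.0613) or 1 (0.0731) left out, and no intensity trend (0.0539). The direct comparison of shRNA2 with shRNA1 called 0 of the 10 members in limma, where 0.455% of all genes were called. At an unadjusted p under 0.05, 3 members differed between the lines: Elovl6 and Scd1, lower with shRNA2, and Acss2, higher with shRNA2, where 10.0% of all genes passed this unadjusted threshold. The lines did not overlap for the same 3 members, where 14.4% of all genes did not overlap.

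Levels of genes that act side by side were also set against each other within each library. The differences that follow compare a pair of genes in the same library, and only their change between groups is read, since the values carry no known scaling for transcript length. They were not tested. Scd1 minus Fasn averaged -0.52 ± 0.34 with shRNA1, -0.60 ± 0.35 with shRNA2 and -2.06 ± 0.07 with control on the log2 scale (SD, n = 3 each). Acss2 minus Acly averaged -4.30 ± 0.09 with shRNA1, -4.03 ± 0.11 with shRNA2 and -5.05 ± 0.02 with control. Acacb minus Acaca was -3.84 ± 0.34 with shRNA1, -3.72 ± 0.18 with shRNA2 and -4.82 ± 0.44 with control. For these pairs each hairpin library was above each control library, so the desaturase, the acetate-using enzyme and the mitochondrial carboxylase were each higher relative to the partner. This separation follows from the single genes. For Scd1 with Fasn and Acss2 with Acly, the hairpin libraries of the paired genes already lay on opposite sides of the controls. For Acacb with Acaca, the gap between hairpin and control libraries of Acacb was wider than the overlap of those of Acaca. The separation is therefore no added evidence. Scd1 minus Scd2 was -3.08 ± 0.08 with shRNA1, -3.40 ± 0.06 with shRNA2 and -3.79 ± 0.05 with control, with shRNA2 between the other groups. Elovl6 minus Elovl5, an elongase of polyunsaturated fatty acids, was -0.03 ± 0.28 with shRNA1, -0.57 ± 0.20 with shRNA2 and -0.04 ± 0.03 with control. The shRNA2 libraries lay below all others, as they did for Elovl6 alone.

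**Figure D3:**
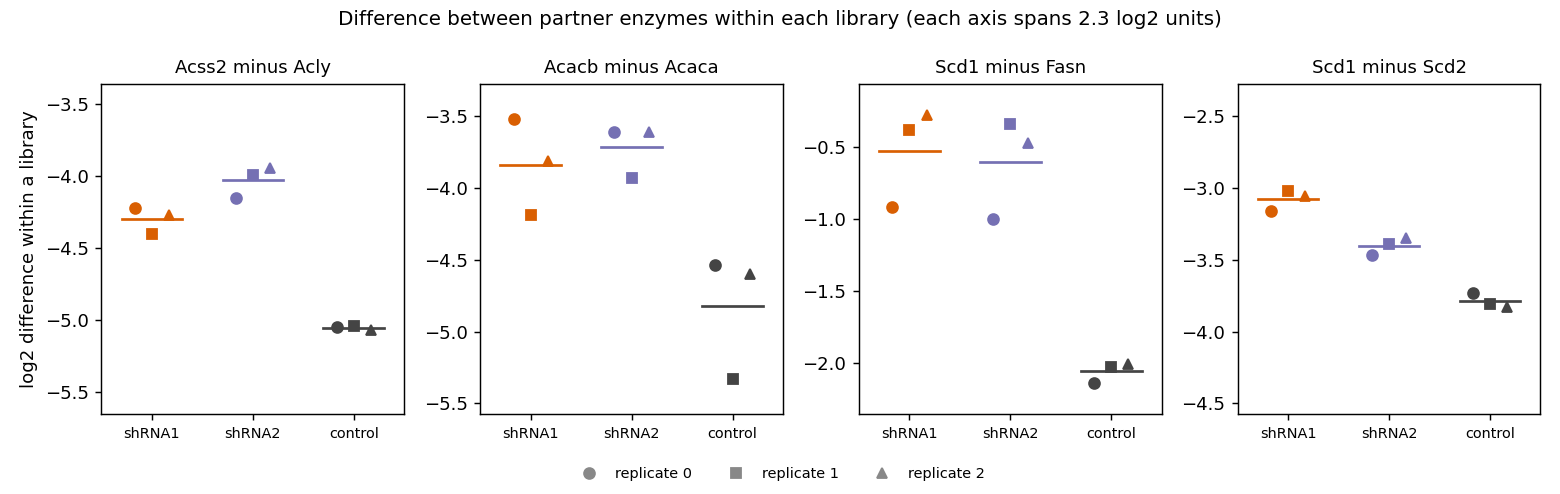
Difference in log2 level (vertical axis) between a pair of genes in the same library, with shRNA1, shRNA2 and control from left to right; points are libraries and bars are means. The Scd1 minus Fasn difference averages -0.52 and -0.60 in the hairpin groups and -2.06 in the control group.

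Lists of genes, 8 in all, around the pathway were read for the mean of both hairpins against control, where 9.69% of all genes were called higher and 7.89% lower. In both directions together 1892 of 10762 genes were called, against 3263 with the replicate block and 4452 without the libraries numbered 0. Without control replicate 1 or 2, 616 or 631 were called. List counts under those settings are to be read beside these. Citrate export and NADPH supply had 12 of 12 genes measured, of which 3 rose and 2 fell, with a median log2 fold change of 0.08. Acss1, the mitochondrial acetyl-CoA synthetase, rose by 1.20 (SE 0.11, adjusted p = 0.000438), the citrate carrier Slc25a1 by 0.45 (adjusted p = 0.026) and the malic enzyme Me1, a source of NADPH, by 0.31 (adjusted p = 0.0237). Both acetate-activating enzymes, Acss1 and Acss2, were thus higher. The filter on the lowest 25% of genes removed Acss1, so it has no value there. Slc25a1 was called with shRNA1 (adjusted p = 0.0347) and not with shRNA2 (0.0864). Its mean call and that of Me1 were not made without control replicate 1 (0.109 and 0.0782) or 2 (0.124 and 0.126). Pgd, which makes NADPH in the pentose phosphate pathway, fell by 0.43 (SE 0.07, adjusted p = 0.00504). Pgd was called with shRNA2 (adjusted p = 0.00392) and not with shRNA1 (0.0643). Cs, citrate synthase, fell by 0.23 (adjusted p = 0.0312) and was named after its value was seen. Me1 differed between the lines: its log2 fold change was 0.71 with shRNA1 (adjusted p = 0.00307) and -0.08 with shRNA2 (adjusted p = 0.613), and shRNA2 over shRNA1 was -0.78 (SE 0.09, adjusted p = 0.0121). That difference was not called with only the groups compared (adjusted p = 0.0585) or without replicate 1 or 2 of shRNA1 (0.0804 and 0.0719) or of shRNA2 (0.0941 and 0.0777). Without control replicate 1 or 2, 1 gene of this list rose and 1 fell, without shRNA1 replicate 2 or shRNA2 replicate 1 or 2, 1 fell, and with the replicate block 5 rose.

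The list of other elongation cycle enzymes had 10 of 13 genes measured, with 1 higher and 1 lower and a median of -0.04. The elongase Elovl7 rose by 0.46 (SE 0.10, adjusted p = 0.0184) and the dehydratase Hacd3 fell by 0.39 (SE 0.09, adjusted p = 0.0182), and neither passed without control replicate 1 or 2. Elovl7 was called with shRNA1 (adjusted p = 0.0218) and not with shRNA2 (0.0799). Without the libraries numbered 0, 4 elongation genes rose and 3 fell, where 4452 of all 10762 genes were called. Without shRNA1 replicate 0, 3 fell, with the block 2 rose, and without control replicate 0 none fell. Of other desaturases and their electron donors, 8 of 11 were measured, 3 rose and 0 fell, with a median of 0.11. Cyb5r2, a reductase of the cytochrome b5 family that can pass electrons to desaturases, rose by 2.58 (SE 0.24, adjusted p = 0.000504), with log2 group means of 3.17 with shRNA1, 3.55 with shRNA2 and 0.78 with control. Its relative Cyb5r1 rose by 0.41 (SE 0.08, adjusted p = 0.0113), a call not made without control replicate 1 (0.0692) or 2 (0.0646). Cyb5r1 was called with shRNA2 (adjusted p = 0.0145) and narrowly not with shRNA1 (0.0507). The other listed cytochrome b5 genes, named after their values were seen, were not called. These were Cyb5a (-0.11, adjusted p = 0.695), Cyb5b (0.03, 0.772), Cyb5r3 (0.20, 0.227) and Cyb5r4 (-0.20, 0.0824). Fads6 rose by 0.95 in the mean (SE 0.17, adjusted p = 0.00853), with log2 fold changes of 1.51 with shRNA1 (adjusted p = 0.00371) and 0.38 with shRNA2 (adjusted p = 0.25), where its libraries overlapped the controls. The Fads6 difference of shRNA2 over shRNA1 was -1.13 (SE 0.20) and was not called (adjusted p = 0.0551). The filter on the lowest 25% of genes removed Cyb5r2 and Fads6 themselves, which left 1 gene of this list called.

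Control of acetyl-CoA carboxylase had 13 of 14 genes measured, with 2 higher, 1 lower and a median of 0.02. Mid1ip1, which promotes assembly of the carboxylase into active filaments, rose by 0.70 (SE 0.07, adjusted p = 0.000938). Trib3, a pseudokinase induced by stress and known to mark the carboxylase for degradation in mouse fat tissue, rose by 2.67 (SE 0.24, adjusted p = 0.000433). Prkag2, a subunit of the AMP-activated kinase that inhibits the carboxylases, fell by 0.45 (adjusted p = 0.0381), a call not made when any single control library was omitted. Of 15 measured of 18 genes for control by SREBP, LXR and ChREBP, 1 rose (Rxrb by 0.26, adjusted p = 0.0484) and 1 fell (Fbxw7, a ubiquitin ligase subunit that removes nuclear SREBP, by 0.38, adjusted p = 0.0403), and neither call was made when any single control library was omitted. Their median was 0.02. Fbxw7 was called with shRNA1 (-0.55, adjusted p = 0.0232) and not with shRNA2 (-0.20, adjusted p = 0.315), where its libraries overlapped the controls. Rxrb (adjusted p = 0.0485 and 0.177) and Prkag2 (0.0465 and 0.121) were also called with shRNA1 and not with shRNA2. Srebf1, which encodes SREBP-1, had a log2 fold change of 0.21 (SE 0.10, adjusted p = 0.161; named after its value was seen).

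Mitochondrial fatty acid synthesis had 10 of 12 genes measured and a median of 0.06: Cbr4, a subunit of its ketoacyl reductase, rose by 0.33 (adjusted p = 0.0465) and Mecr, its enoyl reductase, fell by 0.30 (adjusted p = 0.0353), neither of them called when any single control library was omitted. Cbr4 was called with neither hairpin alone (adjusted p = 0.16 with shRNA1 and 0.05 with shRNA2). Its mean call was made in 6 of 15 alternatives, and missed without shRNA1 replicate 0 (0.0503). Mecr was called with shRNA2 (-0.46, adjusted p = 0.0157) and not with shRNA1 (-0.13, adjusted p = 0.393). Its mean call was made in 9 of 16 alternatives. Glycerolipid synthesis and storage had 13 of 15 measured, 2 higher and 1 lower, with a median of -0.05. The glycerol-3-phosphate acyltransferase Gpat3 rose by 1.24 (SE 0.26, adjusted p = 0.0131), Mogat1, a monoacylglycerol acyltransferase, rose by 1.28 (SE 0.33, adjusted p = 0.0297), and Gpat4, which catalyses the same step as Gpat3, fell by 0.43 (SE 0.08, adjusted p = 0.00707). Without control replicate 1 neither Gpat3 (adjusted p = 0.0671) nor Mogat1 (0.125) passed, and Mogat1 also missed without control replicate 2 (0.113) or shRNA2 replicate 0 (0.0545) or 1 (0.0648). Both were low in control, with log2 means of -0.19 for Gpat3 and 0.15 for Mogat1. Mogat1 was not called with shRNA1 alone (adjusted p = 0.123). The filter on the lowest 25% of genes removed Gpat3 and Mogat1 themselves, which left 0 glycerolipid genes called higher. With the block 3 glycerolipid genes fell, and without the libraries numbered 0, 4 did. All 17 cholesterol genes controlled by SREBP-2 were measured, and 2 rose, with a median of 0.16. Pmvk, phosphomevalonate kinase, rose by 0.39 (SE 0.10, adjusted p = 0.0235), a call not made without control replicate 1 (0.105) or 2 (0.117) or shRNA2 replicate 1 (0.054) or 2 (0.0536). Pmvk was called with shRNA1 (adjusted p = 0.0373) and not with shRNA2 (0.0657). With the replicate block 5 of the 17 rose and 1 fell, and without the libraries numbered 0, 10 rose and 2 fell. Of all 10762 genes, 3263 were called in either direction with the block and 4452 without the libraries numbered 0. Without control replicate 0 or shRNA2 replicate 1 or 2, 1 of the 17 rose, and without control replicate 1 or 2 none rose. Without shRNA1 replicate 0, 1 of them fell.

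**Figure D4:**
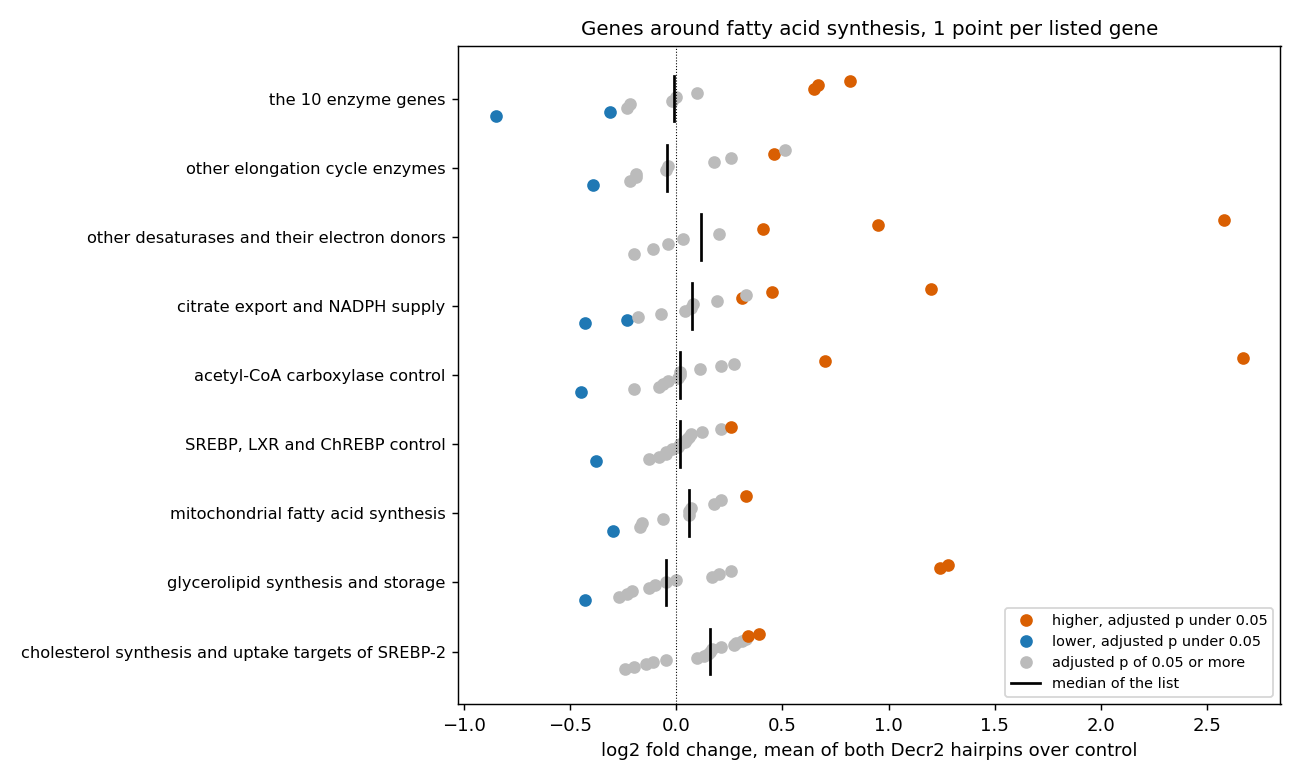
Log2 fold change of the mean of both hairpins against control (horizontal axis) for every measured gene of the members and of 8 lists around the pathway; orange points were called higher, blue points were called lower, grey points did not pass the limma test, and vertical ticks are medians. List medians lie between -0.05 and 0.16.

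Genes with the profile most like that of a called member were ranked by the root-mean-square difference between mean-centred log2 profiles over the 9 libraries. Nearest to Acss2 were Tcta (0.069), Fam114a1 (0.073), Klf9 (0.079), Acbd4 (0.080) and Mpnd (0.081). Nearest to Scd1 were Sbno2 (0.097) and Trp53inp1 (0.102), and nearest to Acacb were Zbtb4 (0.094) and Lekr1 (0.116). For Fasn the nearest were Pdia4 (0.154), a chaperone of the endoplasmic reticulum, and Nav2 (0.161), and for Elovl6 they were Ppil4 (0.060) and the fucosyltransferase Fut8 (0.070). The Fasn profile thus had no neighbour as close as those of the other called members.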

How the data were processed

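The authors' deposited table holds log2 values for 9 libraries, with the authors' log2 fold changes and adjusted p-values per the file headers. Per the submitters' processing notes, kallisto, FastQC and limma were used, without versions; not given in the sources used here are the build, annotation, strand and filter. Whole counts are not given, so depth is unknown and precision rests on the spread between libraries. Columns were linked to hairpins through the authors' headed comparisons, whose fold changes lay within 0.05 of the assigned columns' differences in 99.7% of genes for shRNA2 and 26.3% for the other hairpin's columns; were the headings exchanged, the hairpin names would be too. Gene symbols were matched by identifier for 10759 genes.

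Tests were limma 3.58.1 in R 4.3.3 on the deposited log2 values, with an intensity trend, group means, all 9 libraries, and Benjamini-Hochberg adjustment over 10762 genes. The test was checked on simulated data with independent noise in each library. Those data hold no deviations shared by libraries of the same number, so the check does not cover such deviations. Intervals are 95% from this fit. Libraries of the same number deviated together in all 9 pairs (r 0.126 to 0.644), so the number was also fitted as a block, given where it changed a call. Of the 18 pairs of different numbers (r -0.629 to 0.531), those of replicates 1 and 2 were also above 0 (0.128 to 0.531), so the shared deviation lay mainly between replicate 0 and the others. Genes and lists were chosen with earlier results of these data known. Named beside the members and Decr2 were up to 4 called genes per list by adjusted p, and the 5 genes nearest in profile to the member with the smallest adjusted p, with 2 for each other called member. Coordinates are from GENCODE M21. Single values of some listed genes are not reported here. Alternatives were the block, centring each library, removing the lowest 25% of genes, adding 1 on the linear scale, a robust prior, no trend, only the groups compared, no libraries numbered 0, and each library left out.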

Additional observations from a re-analysis of the deposited data

Results flagged for a closer look

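The 2 hairpin lines differed, by the test of shRNA2 against shRNA1 itself, for 3 of the genes named by rule. Of all genes, 0.455% were called in this test. The design cannot tell a difference between hairpins from one between the stable lines. Me1 was 0.71 higher than control with shRNA1 and -0.08 with shRNA2 on the log2 scale, a difference of -0.78 (SE 0.09, adjusted p = 0.0121), called in 12 of 17 alternatives, with adjusted p-values of 0.00823 to 0.0941 without single libraries. Decr2, the gene targeted by the hairpins, differed by -1.66 (adjusted p = 0.0233), called in 8 of 16 alternatives. Fut8, 1 of the 2 genes nearest to Elovl6 in profile, differed by -0.52 (SE 0.09, adjusted p = 0.0477), called in 7 of 17 alternatives. Its log2 means were 5.99 ± 0.13 with shRNA1, 5.47 ± 0.09 with shRNA2 and 6.04 ± 0.07 with control (SD, n = 3 each). Fut8 was chosen for its likeness to Elovl6 over the same 9 libraries. Its difference was thus largely fixed by that choice, Elovl6 differing by -0.51, and is no added evidence. Groups of 3 libraries are too small for the test of single outlying values.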

How the results depend on the processing

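Of the members, Acss2 kept its calls with each hairpin, and so did Scd1 with shRNA1 and Fasn with shRNA2, in all 17 alternatives run. The replicate block moved the members called between the lines to 1 and no libraries numbered 0 to 3, against 0; no libraries numbered 0 also gave 8 members called in the mean of both hairpins, against 5, the added ones being Acly, Acaca and Scd2. Over all genes the block called 2646 with shRNA1, 2583 with shRNA2, 3263 in the mean and 201 between the lines, and no libraries numbered 0 gave 3711, 4011, 4452 and 955. With only the groups compared, 675 were called with shRNA1 and 6 between the lines. With 1 library left out, members called ran from 2 to 4 with shRNA1, 2 to 7 with shRNA2, 4 to 5 in the mean and 0 to 2 between the lines, and all genes called from 328 to 1579, 406 to 2450, 616 to 2642 and 3 to 94. The cause was not tested. Signs turned only for uncalled values near 0. Elovl6 with shRNA1 was 0.03 with no libraries numbered 0 and ran from -0.12 to 0.04 with 1 library left out. Fads1 was 0.02 between the lines with no libraries numbered 0, and with 1 library left out it ran from -0.03 to 0.01 both there and with shRNA1. With 1 library left out, Fads2 ran from -0.08 to 0.05 with shRNA1, -0.02 to 0.11 with shRNA2 and -0.05 to 0.08 in the mean (-0.01 with centred libraries), and Acacb between the lines from -0.06 to 0.16. The filter on the lowest 25% of genes removed Acacb and Decr2, so neither has a value there. Depth is unknown, so no counting error can be given.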

Other observations

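Beside Me1, Idh1 of the list of citrate export and NADPH supply differed between the lines, and it was named after its value was seen. Idh1, the cytosolic isocitrate dehydrogenase that makes NADPH, fell by 0.41 with shRNA1 (SE 0.09, adjusted p = 0.0189) and had a log2 fold change of 0.27 with shRNA2 (SE 0.09, adjusted p = 0.0696). The difference of shRNA2 over shRNA1 was 0.68 (SE 0.09, adjusted p = 0.0185), called in 11 of 17 alternatives. Me1 and Idh1, both cytosolic sources of NADPH, thus differed between the lines in opposite directions. Each comparison with control uses the same control libraries.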
